A study of Mus musculus with 6 samples.

Results

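The genes described here encode the subunits of oxidative phosphorylation, the respiratory chain and ATP synthase of the inner mitochondrial membrane. They were chosen by symbol, as the genes named mt-Nd, mt-Co, mt-Cytb and mt-Atp, Ndufa, b, c, s and v, Sdha to Sdhd, Uqcr, Cox4 to Cox8 and Atp5. Symbols that contain -ps were left out, which did not remove every annotated pseudogene. The deposited count table lists 46078 gene identifiers, of which 101 met this rule, 13 of them encoded in mitochondrial DNA and 88 in the nucleus. Of these, 82 reached a mean of 1 CPM (counts per 1000000 scaled reads) over the 6 libraries and are called tested below, 7 mitochondrial and 75 nuclear. Assembly factors, Cyc1 and Ndufab1 fall outside the rule. Genes were placed in a complex by symbol alone, Ndufa4 in complex I included, and not by where the protein sits.

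The cells were MLE12, an immortalized mouse lung epithelial line grown to a monolayer. The parental, wild-type line was left unscratched in 1 library and was scratched with a pipet tip in another, with cells collected 24 hours later in either case. A knockout line of Lingo1, Lingo2, Lingo3 or TROY, each scratched and collected after 24 hours, gave 1 library each, so that all 4 knockout libraries were scratched and share the immortalized background. LINGO proteins are leucine-rich repeat membrane proteins, and TROY, encoded by Tnfrsf19, is a receptor of the tumour necrosis factor receptor family. Below, each knockout library is named by its label. No group had a second library, and the labels do not say how a knockout line was made or whether it grew from a single cell. A difference between 2 libraries therefore cannot be held against the spread between cultures, and no p-value is given.

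Oxidative phosphorylation passes electrons from NADH through complex I (NADH dehydrogenase) or from succinate through complex II (succinate dehydrogenase) to complex III (cytochrome bc1) and complex IV (cytochrome c oxidase), and ATP synthase, complex V, uses the resulting proton gradient. Complexes I, III, IV and V hold subunits from both genomes, while complex II is wholly nuclear. Mitochondrial transcripts are made as long polycistronic RNAs that are cut at intervening tRNAs, whereas each nuclear subunit gene has a promoter of its own.

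Of the 13 mitochondrially encoded genes, 7 had counts and 6 stood at 0 in all 6 libraries. The genes at 0, mt-Co2, mt-Atp8, mt-Atp6, mt-Co3, mt-Nd3 and mt-Nd4l, are neighbours that fill the stretch between mt-Co1 and mt-Nd4, and they encode parts of complexes IV, V and I. To see where a read could be placed, every window of 50 bases of each transcript was looked for in the transcripts of all other genes (GENCODE M21, GRCm38). The sequences below are stretches of 80 bases that show the contrast, with capitals for bases inside a window that also occurs in another gene's transcript.
mt-Nd1, chrM:2751-2830, plus strand: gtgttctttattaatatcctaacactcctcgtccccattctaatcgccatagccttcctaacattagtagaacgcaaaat
mt-Co2, chrM:7013-7092, plus strand: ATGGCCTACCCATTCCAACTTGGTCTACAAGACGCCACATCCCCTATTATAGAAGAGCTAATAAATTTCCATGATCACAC
mt-Co1, chrM:5472-5551, plus strand: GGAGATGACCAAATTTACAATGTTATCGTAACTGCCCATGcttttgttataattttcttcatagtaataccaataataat
mt-Nd4, chrM:11003-11082, plus strand: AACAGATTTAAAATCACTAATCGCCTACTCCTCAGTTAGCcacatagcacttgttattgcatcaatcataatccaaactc
mt-Nd1, a membrane subunit of complex I, had no shared base in its whole length. In mt-Co2, the copper-binding subunit of cytochrome c oxidase, all 684 bases were shared, and its nuclear pseudogene Gm28661 matched it over 681 bases with 0 mismatches. The printed part of mt-Co1, the catalytic subunit of cytochrome c oxidase, runs from shared into unshared sequence, and 1157 of its 1545 bases were shared. mt-Nd4, a proton-pumping subunit of complex I, had 876 of 1378 bases shared, all with Gm28439 at 0 mismatches.

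The share of windows found in no other transcript followed the counts with 1 exception. It was 0.0% in mt-Co2, 0.1% in mt-Co3, 0.5% in mt-Atp6, 1.2% in mt-Nd4l and 2.0% in mt-Nd3, all at 0 counts. It was 37.8% in mt-Nd4 and 48.9% in mt-Co1, 91.8% in mt-Nd2, 92.4% in mt-Nd5 and 100% in mt-Nd1, mt-Nd6 and mt-Cytb, all of which had counts. The exception was mt-Atp8, a small ATP synthase subunit, with 100% of its windows unshared among annotated transcripts and 0 counts. Sequence outside annotated transcripts was not searched, so why mt-Atp8 stood at 0 was not tested. The pseudogenes themselves held few counts: Gm28661, Gm28437 (the copy of mt-Co3) and Gm28439 had at most 1 in any library, and Gm28438, which shares sequence with mt-Nd3, had 54 to 145. HTSeq set aside 12456078 to 14549837 alignments per library as not unique. For the 5 genes at 0 with at most 2.0% unshared windows, few windows could have given a uniquely placed read, so their 0 does not measure expression, and the counts of mt-Co1 and mt-Nd4 cover only part of those genes.

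**Figure D1:**
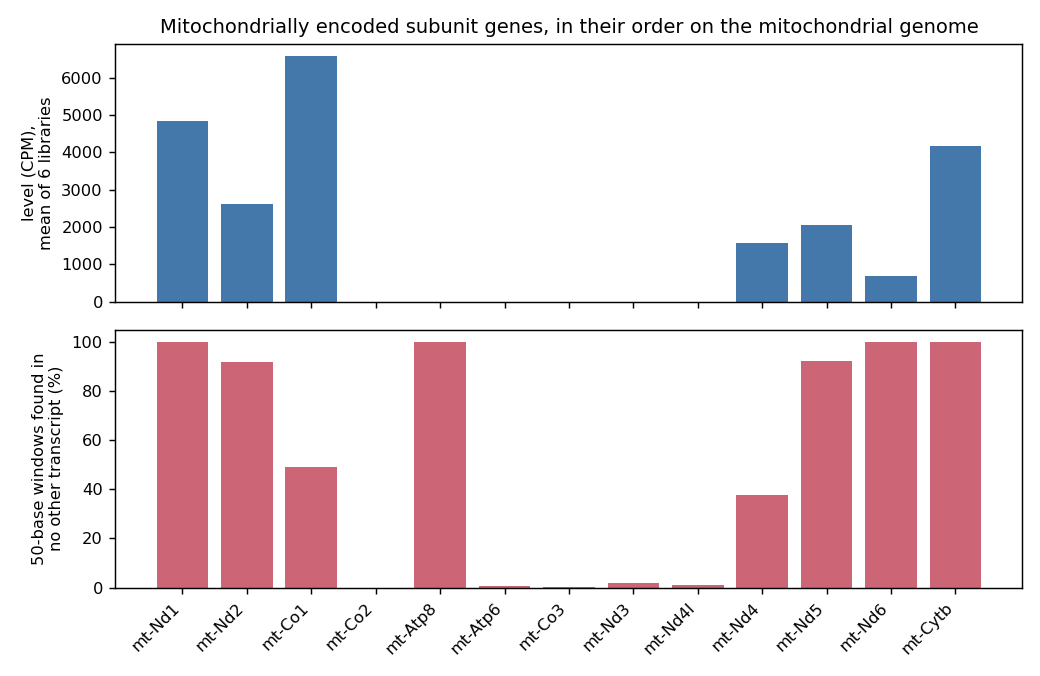
The 13 mitochondrially encoded subunit genes in genome order, with their mean level over the 6 libraries in CPM (top) and the percent of 50-base windows found in no other gene's transcript (bottom). The 6 genes between mt-Co1 and mt-Nd4 have no bar in the top panel, and 5 of them have at most 2.0% unshared windows, while mt-Atp8 has 100%.

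Ndufs5 and Atp5l, nuclear genes for a complex I and an ATP synthase subunit, also had almost no counts, 4 to 6 and 8 to 15 per library. Of their transcript windows 58.8% and 15.2% were unshared. Atp5g2, a gene for the c subunit of the ATP synthase ring, had 0.0% unshared windows in its principal transcript and still 21.4 to 25.3 CPM, so the share describes a transcript model and not all of a gene's reads. The 11 other untested nuclear genes had 0 to 27 counts. Of these, Ndufa11b, Ndufb4c, Ndufs6b and Cox6c2 are annotated as processed pseudogenes, although their symbols met the rule. Ndufa4l2, Cox4i2, Cox6b2, Cox7a1, Cox7b2, Cox8b and Cox8c are mostly isoforms of other tissues.

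Between 28109825 and 30776294 reads per library were counted in genes, and intervals below are 95% intervals that cover counting error only. For single levels the interval's half-width was 0.43% to 1.48% in the mitochondrial and 1.06% to 32.4% in the nuclear genes tested, with a median of 4.09% in the latter. Of the targeted genes, Lingo1 stood at 27.6 and 24.5 CPM in the unscratched and scratched parental libraries. It was highest, at 57.0 CPM (1579 counts), in the library labelled Lingo1 knockout. Transcript level therefore did not show the loss that this label names, and whether the protein was lost cannot be told from it. Lingo1 was also higher in the libraries labelled Lingo2, Lingo3 and TROY, at 52.0, 51.3 and 34.7 CPM. Lingo2 had 0 counts in all libraries, Lingo3 1 in total and Tnfrsf19 13 in total, so these 3 labels could not be checked. Summed epithelial markers reached 2274 to 3374 CPM, higher in all 4 knockout libraries (at least 3034 CPM) than in either parental library (at most 2486 CPM), although keratin Krt18 had only 9 to 14 counts. Leukocyte markers summed to 1.80 to 3.61 CPM and muscle markers to 0.43 to 2.33 CPM, with Ptprc, Cd3e, Adgre1, Ckm, Myh1, Myh2 and Myh6 at 3 counts or fewer in every library. The muscle markers Acta1 and Myh7 were highest in the scratched parental library, at 39 and 25 counts. They had 6 and 12 in the unscratched one and at most 6 and 12 in any knockout, while Des had 0 to 6 throughout. Endothelial markers summed to 103 and 95.4 CPM in the parental libraries and to 162 to 188 CPM in the knockouts, nearly all of it Tek (86.5 to 186 CPM), with Pecam1 at 4 to 15 counts. Vwf, Kdr and Cdh5 went another way and were highest in the scratched parental library, at 169, 74 and 20 counts. They had 16, 12 and 0 counts in the unscratched one and at most 37, 21 and 1 in any knockout. Fibroblast markers summed to 2578 to 3461 CPM, nearly all of it Dcn (2532 to 3321 CPM), with Col1a2 at 3 counts or fewer. Col1a1 was at 62.3 and 44.8 CPM in the parental libraries and at 170.2, 136, 398 and 146 CPM in the Lingo1, Lingo2, Lingo3 and TROY libraries. In the same order Pdgfra had 46 and 52 counts and then 69, 86, 204 and 79. Pdgfrb had 3 and 1 and then 52, 37, 348 and 13, and Col3a1 0 and 0 and then 1, 3, 62 and 3. All 4 of these genes were highest in Lingo3. Retained nuclear RNAs such as Malat1 and Neat1 summed to 1215 and 1334 CPM in the unscratched and scratched parental libraries and to 370 to 632 CPM in the knockouts. The share of aligned reads outside counted features was 7.80% and 8.02% in the parental libraries and 4.98% to 6.41% in the knockouts. The part of these differences in the results below was not tested, and in bulk RNA fewer cells with a transcript and less transcript per cell cannot be told apart.

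The counts of the 7 measured mitochondrial genes made up 1.99% of all gene counts in the unscratched parental library and 2.25% in the scratched one. In the libraries labelled Lingo1, Lingo2, Lingo3 and TROY knockout the share was 2.16%, 2.48%, 2.22% and 2.41%. The nuclear subunit genes took 0.976% and 0.982% in the parental libraries and 0.914%, 1.02%, 0.974% and 0.851% in the knockouts, so that the TROY library had the lowest nuclear share together with a high mitochondrial one. Mitochondrial counts per nuclear subunit count were 2.04 and 2.29 in the parental libraries and 2.36, 2.44, 2.28 and 2.83 in the knockouts. This ratio within a library does not depend on scaling between libraries. It was 1.12-fold higher with the scratch in the parental line (1.12 to 1.13). Against the scratched parental library it was 1.24-fold higher in the TROY knockout (1.23 to 1.24), 1.06-fold in the Lingo2 knockout (1.06 to 1.07), 1.03-fold in the library labelled Lingo1 knockout (1.03 to 1.04) and 0.995 in the Lingo3 knockout. The TROY difference exceeded the one between the parental libraries, and those of the other knockouts were smaller than it with this control. Against the unscratched parental library the ratio was 1.16-fold higher in Lingo1, 1.20-fold in Lingo2, 1.12-fold in Lingo3 and 1.39-fold in TROY.

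Per length, on the authors' RPKM scale (reads per kilobase and 1000000 reads), mt-Nd1 had the highest mean level over the 6 libraries at 4995 RPKM, ahead of mt-Co1 at 4201 and mt-Cytb at 3599. mt-Nd2 followed at 2493, mt-Nd6 at 1305, mt-Nd4 at 1121 and mt-Nd5 at 1116 RPKM. mt-Nd4 and mt-Nd5 exchanged their order between libraries, as did mt-Nd1 and mt-Co1, with mt-Co1 above in both parental libraries by 3966 to 3962 and by 4453 to 4351 RPKM and mt-Nd1 above in all 4 knockouts. mt-Co1 and mt-Nd4 can be read low on this scale because part of their length is shared.

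mt-Nd1, mt-Nd2 and mt-Nd5, all subunits of complex I, were the 3 mitochondrial genes whose 4 knockout libraries all stood above both parental libraries. mt-Nd1 (chromosome M, 2751 to 3707) was at 3846 and 4188 CPM in the unscratched and scratched parental libraries, and at 4989, 5663, 4787 and 5606 CPM in the libraries labelled Lingo1, Lingo2, Lingo3 and TROY knockout. mt-Nd2 (3914 to 4951) was at 2066 and 2290 CPM in the parental libraries and at 2661, 3102, 2579 and 3048 CPM in the knockouts. Both genes were highest in the Lingo2 and TROY libraries. mt-Nd5 (11742 to 13565) was at 1629 and 1914 CPM in the parental libraries and at 2029, 2217, 2224 and 2371 CPM in the knockouts. Of all tested genes, 24.2% had 4 knockout libraries above both parental ones, so that 3 of 7 is to be read against that share.

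In the remaining 4 mitochondrial genes the parental and knockout ranges overlapped. mt-Co1 (5328 to 6872) stood at 6216 and 6920 CPM in the parental libraries and at 6155, 6824, 6683 and 6672 CPM in the knockouts. mt-Cytb, the mitochondrial subunit of complex III (14145 to 15288), stood at 3835 and 4131 CPM and at 3926, 4671, 3998 and 4479 CPM. mt-Nd4 (10167 to 11544) ranged from 1379 to 1845 CPM and mt-Nd6 (13552 to 14070), the gene on the opposite strand, from 613 to 800 CPM, both lowest without the scratch and highest in the Lingo2 knockout. The labels do not say whether counting used strand, so reads of mt-Nd6 and reads antisense to it cannot be told apart.

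**Figure D2:**
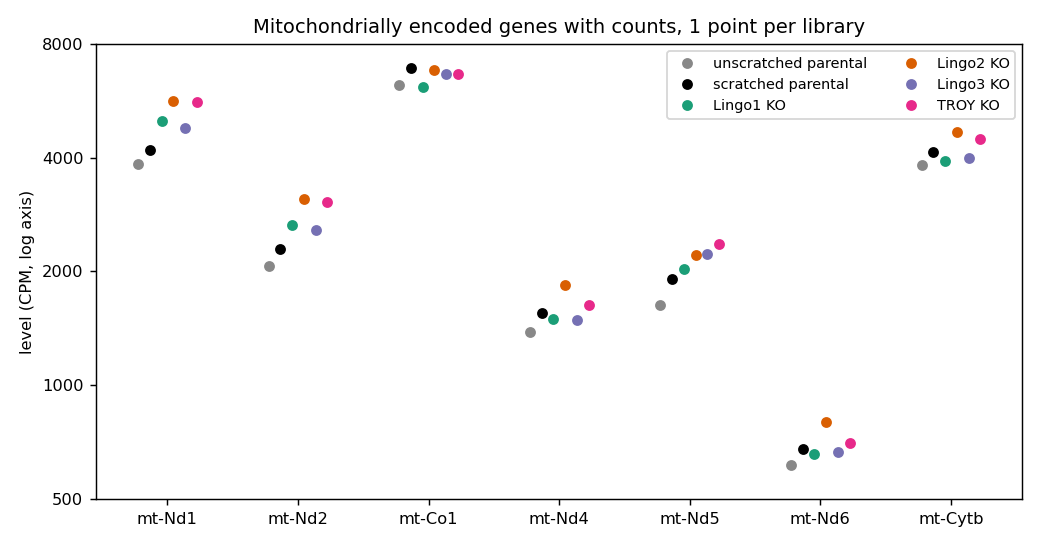
Level of each counted mitochondrial gene in CPM (log axis), with 1 point for each of the 6 libraries. The knockout points lie above both parental points for mt-Nd1, mt-Nd2 and mt-Nd5, and parental and knockout ranges overlap for mt-Co1, mt-Nd4, mt-Nd6 and mt-Cytb, where the Lingo2 and TROY points of the last 3 lie above both parental points and the Lingo1 point of mt-Co1 lies below both.

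A gene passed the rule used below when its log2 fold between 2 libraries was at least 0.32 in size and the interval bound nearest to 1 lay beyond 1.1-fold, called the 0.32 rule; the stricter 2-fold rule asked for 2-fold and a bound beyond 1.5-fold. Scratching the parental line moved no mitochondrial gene past the 0.32 rule, and the 7 ratios lay between 1.08 for mt-Cytb and 1.17 for mt-Nd5 (1.16 to 1.19). Against the scratched parental library mt-Nd1 and mt-Nd2 passed in 2 knockouts. In the Lingo2 knockout mt-Nd1 was 1.35-fold (1.34 to 1.36) and mt-Nd2 1.35-fold higher (1.34 to 1.37). In the TROY knockout mt-Nd1 was 1.34-fold (1.33 to 1.35) and mt-Nd2 1.33-fold higher (1.32 to 1.34). In the Lingo1 and Lingo3 knockouts mt-Nd1 had ratios of 1.19 and 1.14, short of the rule.

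The mitochondrial genes differed among themselves within each knockout comparison. mt-Nd1 and mt-Nd2, which lie next to the ribosomal RNA genes, had larger ratios than mt-Co1 in all 4 knockouts, and mt-Co1 was the lowest of the 7 in the Lingo1, Lingo2 and TROY knockouts, with ratios of 0.889, 0.986 and 0.964. In the Lingo3 knockout mt-Nd4 was lowest at 0.958, beside mt-Co1 at 0.966. The ratios did not follow position throughout, since mt-Nd5, far downstream, had ratios of 1.06, 1.16, 1.16 and 1.24 in the libraries labelled Lingo1, Lingo2, Lingo3 and TROY knockout, above mt-Co1 in all 4 and highest of the 7 in Lingo3. Counts of mt-Nd1 per count of mt-Co1 were 0.619 and 0.605 in the parental libraries and 0.811, 0.830, 0.716 and 0.840 in the knockouts. The large ribosomal RNA mt-Rnr2, the gene before mt-Nd1, moved in the same direction: counts per count of mt-Co1 were 0.0965 and 0.101 in the parental libraries and 0.178, 0.210, 0.151 and 0.218 in the knockouts. Against the scratched parental library mt-Rnr2 was 1.56-fold higher in the library labelled Lingo1 knockout, 2.04-fold in Lingo2, 1.44-fold in Lingo3 and 2.07-fold in TROY (2.04 to 2.11). The small ribosomal RNA mt-Rnr1, which lies before it, had ratios of 1.12, 1.57, 0.911 and 1.35, so it was lower in Lingo3 and below mt-Nd1 in Lingo1. Library preparation was by a messenger RNA kit, so the level of a ribosomal RNA depends on how much of it the selection carried over, which was not tested.

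**Figure D3:**
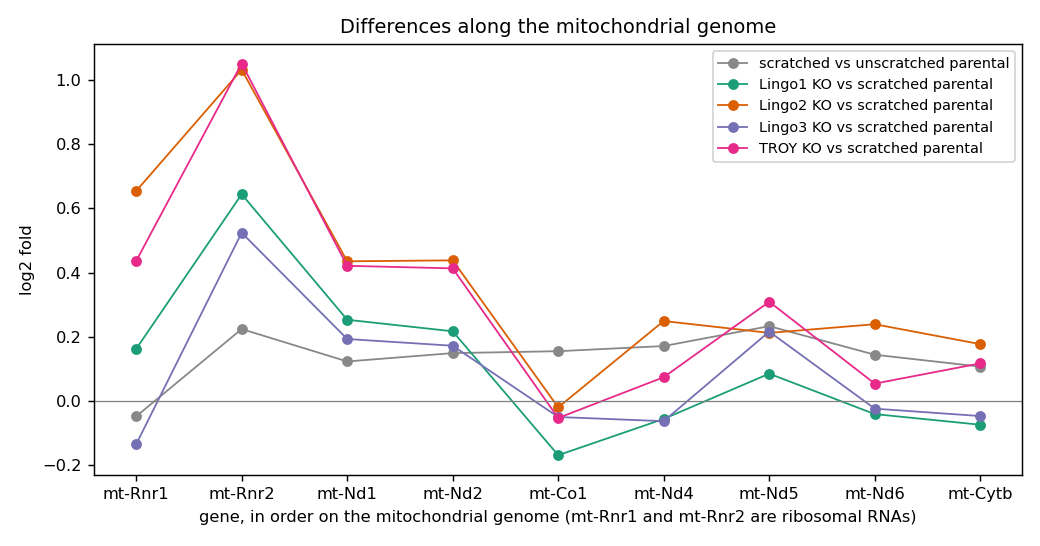
Log2 fold of the counted mitochondrial genes and the 2 ribosomal RNAs in genome order, 1 line per comparison. In all 4 knockout comparisons the values for mt-Rnr2, mt-Nd1 and mt-Nd2 lie above that of mt-Co1, mt-Rnr1 lies below it in Lingo3, and mt-Nd5 lies above it in all 4, while the scratch comparison in the parental line stays between 0.11 and 0.23 from mt-Nd1 to mt-Cytb.

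For the nuclear subunits the scratch made little difference. The median log2 fold of the 75 tested nuclear genes was -0.01, as it was over all 12078 tested genes. No subunit gene of either genome passed the 0.32 rule, where 0.902% of all tested genes passed upward and 1.27% downward. The largest upward differences at the interval bound were in Uqcrq, a small subunit of complex III, at 1.12-fold (1.04 to 1.21), and Sdhd, a membrane anchor of complex II, at 1.08-fold (1.04 to 1.12), followed by Ndufa4 at 1.07 and Atp5f1, a stalk subunit of ATP synthase, at 1.07. Downward they were in Ndufa13 and Ndufa6, accessory subunits of complex I, with ratios of 0.846 (0.811 to 0.882) and 0.834 (0.786 to 0.885), followed by Atp5d at 0.872 and Ndufs7 at 0.858.

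Across the knockouts most nuclear genes differed little, and the direction of their median changed from line to line. Their median log2 fold against the scratched parental library was -0.10 in the library labelled Lingo1 knockout, 0.11 in Lingo2, -0.01 in Lingo3 and -0.19 in TROY, where the median over all tested genes lay between 0.01 and 0.02. A ratio above 1 was found for 21 of 75 nuclear genes in the library labelled Lingo1 knockout (51.2% of all tested genes), for 66 in Lingo2 (53.1%), for 36 in Lingo3 (50.8%) and for 11 in TROY (53.5%), so that Lingo3 showed no common direction. Summed counts of the 29 nuclear genes of at least 1 kb and of the 46 shorter ones went opposite ways in Lingo1, with ratios of 1.05 and 0.927, and in Lingo3, with 1.12 and 0.973. The 4 comparisons share the scratched parental library. Set against each other, the Lingo2 library was above the Lingo1 library in 70 of 75 nuclear genes (51.6% of all tested genes), with a median log2 fold of 0.18. The TROY library was below the Lingo2 library in 73 of 75 (48.5% of all tested genes had a ratio above 1), with a median of -0.30, and 33 of them passed the 0.32 rule downward (6.49% of all tested genes).

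Other short transcripts shifted in the same direction. These lengths are those of a gene's principal transcript. In the TROY knockout the median log2 fold was -0.20 for those 46 and -0.11 for the 29 longer ones, beside -0.13 for the 592 other tested genes under 1 kb and 0.03 for all tested genes of at least 1 kb. Between the TROY and Lingo2 libraries the 592 other short genes had a median of -0.26, and between Lingo2 and Lingo1 of 0.17, with 87.0% of them above 1. In the Lingo2 knockout the nuclear subunit genes under 1 kb had a median of 0.10, the same as the other short genes. The part of transcript length in these shifts was not tested.

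**Figure D4:**
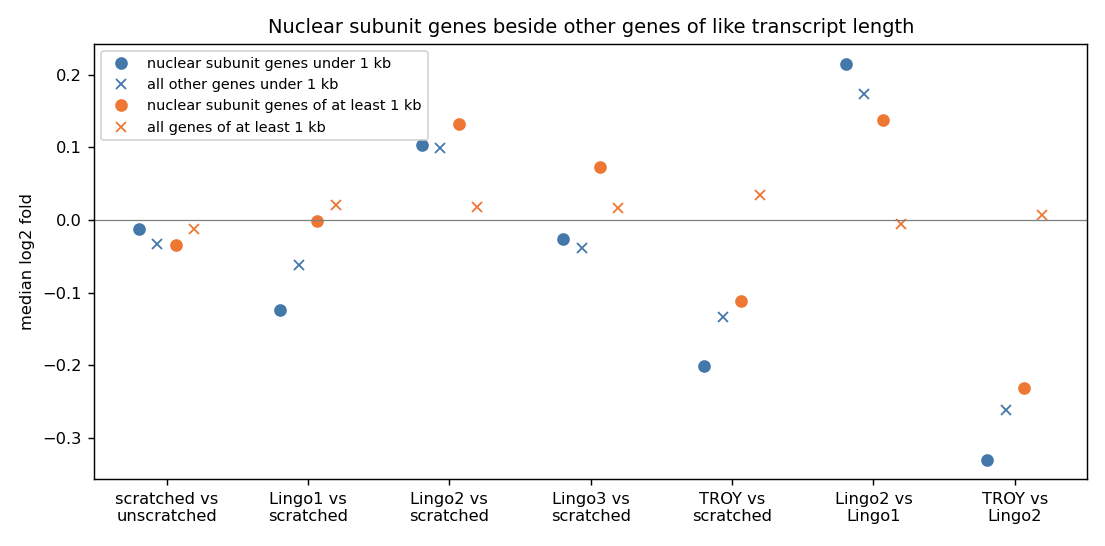
Median log2 fold of nuclear subunit genes (circles) and of other genes (crosses), in blue for principal transcripts under 1 kb and in orange for at least 1 kb, in 7 comparisons of 2 libraries. Blue circles and blue crosses lie on the same side of 0 in every comparison shown, and orange crosses stay near 0.

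Members past the 0.32 rule were fewer, as a share, than among all genes in the knockout comparisons, except for the TROY knockout downward. With total counts in place of TMM scaling the TROY counts below became 2 higher and 22 lower. The library labelled Lingo1 knockout had 2 of 82 higher (13.5% of all tested genes) and 0 lower (11.2%). The Lingo2 knockout had 6 higher (13.1%) and 0 lower (10.6%). The Lingo3 knockout had 9 higher (19.7%) and 1 lower (16.7%). The TROY knockout had 4 higher (11.4%) and 13 lower (9.41%). Cox6a2 in the Lingo3 knockout was the only member past the 2-fold rule in the 5 comparisons. Of all tested genes 0.0828% passed it after the scratch, and 3.62%, 3.5%, 7.19% and 2.24% in the libraries labelled Lingo1, Lingo2, Lingo3 and TROY knockout. Against the unscratched parental library 8, 10, 11 and 18 members passed the 0.32 rule in either direction in the libraries labelled Lingo1, Lingo2, Lingo3 and TROY knockout (22.1%, 21.8%, 34.4% and 21.6% of all tested genes). Of the 75 tested nuclear genes, 8 were above both parental libraries in all 4 knockouts (24.2% of all tested genes). Another 4 were below both (21.9%), so either share was smaller than among all tested genes.

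**Figure D5:**
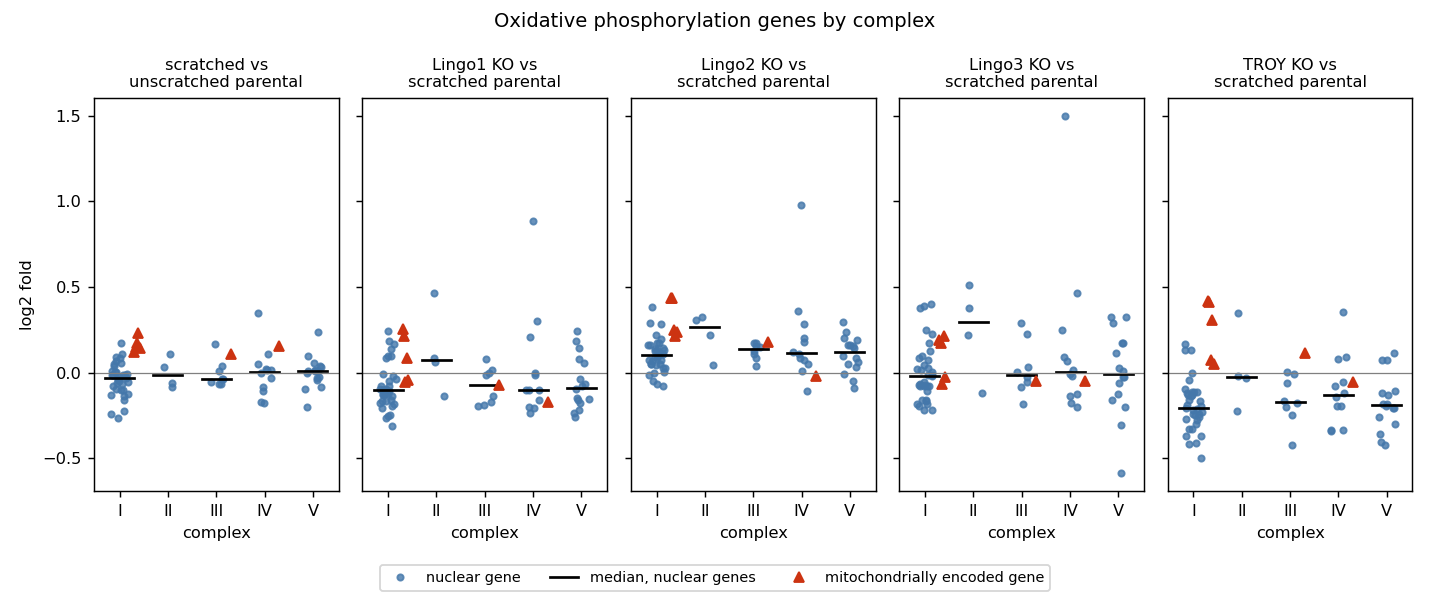
Log2 fold of each tested subunit gene by complex in the 5 comparisons, with blue points for nuclear genes, a black bar for their median and red triangles for mitochondrially encoded genes. The nuclear medians of complexes I, III, IV and V lie close together within each comparison, at -0.21 to -0.13 in the TROY knockout, and the isolated point in complex IV is Cox6a2, highest in the Lingo3 knockout.

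In complex I, which oxidizes NADH, the 35 tested nuclear genes had median log2 folds of -0.10, 0.10, -0.02 and -0.21 in the libraries labelled Lingo1, Lingo2, Lingo3 and TROY knockout. The 7 genes of its catalytic core had a median of -0.21 in the TROY knockout. The 28 other genes placed there by symbol, called accessory here and with Ndufa4 among them, had a median of -0.20. Their summed counts stood further apart, with ratios of 1.03 for the core and 0.927 for the accessory genes in Lingo1, 1.08 and 1.06 in Lingo2, 1.07 and 0.98 in Lingo3, and 0.955 and 0.865 in TROY. Core members diverged from each other. Ndufs1, an iron-sulfur subunit, was above both parental libraries in all 4 knockouts, and Ndufs7 and Ndufs8, iron-sulfur subunits at the end of the electron path, were below both. Ndufs1 (chromosome 1, 63143596 to 63176833) was at 63.6 and 63.0 CPM in the unscratched and scratched parental libraries and at 69.4, 67.2, 70.9 and 69.1 CPM in the knockouts. Ndufs8 (chromosome 19, 3908863 to 3912774) was at 76.9 and 76.3 CPM in the parental libraries and at 63.7, 72.5, 67.2 and 57.6 CPM in the knockouts. Only Ndufs7 and Ndufs8 in TROY passed the 0.32 rule among these 3 genes, with ratios of 0.773 (0.719 to 0.831) and 0.754 (0.708 to 0.803).

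Among the accessory genes of complex I, Ndufa10 (chromosome 1, 92439010 to 92473860) stood out upward. It was at 74.3 and 67.9 CPM in the parental libraries and at 80.3, 88.6, 89.0 and 76.4 CPM in the knockouts. The ratio passed the rule at 1.30 (1.23 to 1.38) in Lingo2 and at 1.31 (1.24 to 1.39) in Lingo3, and the TROY level lay only slightly above the unscratched parental one. Ndufb6 and Ndufa12 passed in the Lingo3 knockout alone, at 1.32-fold (1.20 to 1.46) and 1.30-fold (1.17 to 1.44), although 65.9% and 73.8% of their windows were unshared. In the TROY knockout Ndufa7, Ndufa11, Ndufb4, Ndufb7 and Ndufb8 were lower, with ratios from 0.707 for Ndufb4 (0.581 to 0.859) to 0.798 for Ndufa11 (0.736 to 0.864). The largest downward differences at the bound in Lingo1 were in Ndufa4, Atp5j2, Ndufb8 and Ndufs8, at ratios of 0.835 to 0.844, and in Lingo2 in Atp5f1, Cox7a2l, Ndufs8 and Ndufb11, at 0.927 to 0.966, of which the last 2 had intervals that include 1. None of these passed the rule.

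Complex II, whose 4 genes are all nuclear, was the complex with the highest median in the libraries labelled Lingo1, Lingo2, Lingo3 and TROY knockout, at 0.07, 0.27, 0.30 and -0.03. Sdha, the flavoprotein that oxidizes succinate (chromosome 13, 74322254 to 74350280), was past the 0.32 rule in all 4. It stood at 138 and 131 CPM in the unscratched and scratched parental libraries and at 181, 164, 186 and 167 CPM in the libraries labelled Lingo1, Lingo2, Lingo3 and TROY knockout, with no overlap. Its log2 folds were 0.47, 0.32, 0.51 and 0.35, or ratios of 1.38 (1.33 to 1.44) in Lingo1, 1.42 (1.37 to 1.48) in Lingo3 and 1.27 (1.22 to 1.33) in TROY. The Lingo2 value sat at the threshold and was lost with DESeq2 size factors, total counts, TMM without mitochondrial genes or the unscratched control.

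Sdhb, the iron-sulfur subunit of complex II, was at 116 and 118 CPM in the parental libraries and at 124, 147, 154 and 117 CPM in the knockouts. It passed in the Lingo3 knockout at 1.30-fold (1.24 to 1.36), and its TROY level lay between the parental ones. The membrane anchor Sdhc had ratios of 1.06, 1.17, 1.16 and 0.979, and Sdhd had 0.909, 1.03, 0.922 and 0.856, none past the rule. The 4 genes of the complex thus did not share a level of change.

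In complex III the 8 nuclear genes had medians of -0.07, 0.14, -0.01 and -0.17, and none lay outside both parental libraries in all 4 knockouts. Uqcr11, a small subunit at the edge of the complex, was the single complex III gene past the rule. It was at 71.3 and 68.8 CPM in the parental libraries and at 60.4, 70.6, 60.7 and 51.4 CPM in the knockouts, with a TROY ratio of 0.747 (0.699 to 0.798). The core proteins Uqcrc1 and Uqcrc2 and the Rieske iron-sulfur protein Uqcrfs1 had log2 folds of -0.01, -0.06 and 0.01 there, against -0.25 for the hinge protein Uqcrh.

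In complex IV the 12 nuclear genes had medians of -0.10, 0.12, 0.00 and -0.13. Cox5a, a subunit on the matrix side (chromosome 9, 57521274 to 57532426), stood at 26.8 and 27.8 CPM in the parental libraries and at 34.3, 35.6, 38.3 and 35.5 CPM in the knockouts. All 4 knockout libraries were above both parental ones, with ratios of 1.23 (1.12 to 1.36), 1.28 (1.17 to 1.41), 1.38 (1.26 to 1.51) and 1.28 (1.17 to 1.40), of which the last 3 passed. Of its windows 68.0% were unshared. In TROY its partner genes Cox4i1, Cox7a2 and Cox7b were lower, with ratios of 0.794 (0.775 to 0.813), 0.793 and 0.791. Cox7a2l, a factor in supercomplexes of the chain, was below both parental libraries in all 4 knockouts, at 67.0 to 70.6 CPM against 85.8 and 75.8 CPM, and did not pass the rule. Of all tested genes 21.9% had 4 knockout libraries below both parental ones.

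Several complex IV subunits have isoforms for heart and skeletal muscle, lung or testis, and the common forms prevailed. On the authors' RPKM scale Cox6a1 had a mean of 476 RPKM and its muscle isoform Cox6a2 4.08 RPKM, and Cox7a2 had 217 RPKM against 1.37 RPKM for the muscle form Cox7a1. Cox4i2, known as the lung isoform, had 1 to 4 counts per library beside 401 to 509 CPM for Cox4i1, and the testis forms Cox6b2, Cox7b2 and Cox8c had at most 3. Muscle marker genes were near 0 as given above. Cox6a2 (chromosome 7, 128205435 to 128206387) had 40 and 54 counts in the parental libraries and 91, 99, 153 and 57 in the knockouts. Its level was 1.39 and 1.78 CPM in the parental libraries and 3.28, 3.5, 5.02 and 1.89 CPM in the knockouts, so the TROY library lay next to the parental ones. The ratio was 1.85 (1.31 to 2.64) in Lingo1, 1.97 (1.40 to 2.80) in Lingo2, 2.83 (2.06 to 3.93) in Lingo3 and 1.07 (0.723 to 1.58) in TROY.

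In complex V the 16 nuclear genes had medians of -0.09, 0.12, -0.01 and -0.19. Within it the 5 genes of the catalytic F1 part had medians of 0.08, 0.10, 0.18 and -0.11, and the 11 other genes -0.10, 0.15, -0.02 and -0.21. Atp5a1 and Atp5b, the alpha and beta subunits that form the catalytic ring, were above both parental libraries in all 4 knockouts. Atp5b (chromosome 10, 128083273 to 128090391) was at 903 CPM in either parental library and at 998, 1011, 1134 and 950 CPM in the knockouts. Its ratio passed the rule in Lingo3, at 1.26 (1.24 to 1.28). The small F1 subunit Atp5e was at 102 and 100.1 CPM in the parental libraries and at 84.9, 106, 96.0 and 74.7 CPM in the knockouts, with a TROY ratio of 0.746 (0.706 to 0.788). Atp5j2, a membrane part subunit, had a TROY ratio of 0.755 (0.729 to 0.782). Atp5c1, the gamma subunit that turns inside the catalytic ring, was at 236 and 239 CPM in the parental libraries and had ratios of 0.898, 1.04, 0.872 and 0.882, none past the rule.

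The c-ring of ATP synthase is made from 3 genes that encode the same mature protein. On the RPKM scale Atp5g3 had a mean of 218, Atp5g2 of 30.5 and Atp5g1 of 9.41, the last computed over a long gene model that lowers the value. Atp5g1 passed in Lingo3 with a log2 fold of 0.33. Atp5s, a coupling factor of low level, was the 1 member lower in Lingo3, from 8.32 to 5.54 CPM, a ratio of 0.667 (0.545 to 0.813). Of the nuclear genes for which the authors' table gives an RPKM, the lowest and highest by mean were Ndufb2 at 5.38 (also over a long gene model, of 4430 bases) and Ndufa4 at 263 in complex I, Sdhc at 37.1 and Sdhd at 140 in complex II, Uqcrq at 33.5 and Uqcrh at 299.9 in complex III, Cox7a1 at 1.37 and Cox4i1 at 607 in complex IV, and Atp5l at 0.06 and Atp5b at 506 in complex V. Members with almost no counts, such as Ndufs5 and Cox8b, have no RPKM there.

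The promoters of these genes are known for sites of NRF-1, of ETS factors such as GABP, and of YY1. The 5 below belong to genes past the 0.32 rule in TROY. Sdha and Cox5a upward and Uqcr11 and Atp5e downward are shown as examples. The last 2 were not the most changed downward, since Ndufb4 had a log2 fold of -0.5 and Atp5j2 had an interval bound of 0.782. Ndufa11, the least changed of the 13 lower genes, was added because it holds a match. Each is given as the bases before the RefSeq start and outside the GENCODE gene (GRCm38.p6), with capitals for a motif match.
Sdha, chr13:74350281-74350490, minus strand: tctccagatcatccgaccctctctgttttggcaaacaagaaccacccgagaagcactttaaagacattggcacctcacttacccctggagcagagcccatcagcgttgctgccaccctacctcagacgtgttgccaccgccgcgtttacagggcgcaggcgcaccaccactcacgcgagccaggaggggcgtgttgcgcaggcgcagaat
Cox5a, chr9:57520982-57521231, plus strand: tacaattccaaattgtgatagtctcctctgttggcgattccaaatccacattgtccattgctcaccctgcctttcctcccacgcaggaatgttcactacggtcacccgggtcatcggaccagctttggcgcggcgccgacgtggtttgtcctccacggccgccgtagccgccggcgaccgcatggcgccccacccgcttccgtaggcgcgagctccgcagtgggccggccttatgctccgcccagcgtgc
Uqcr11, chr10:80406831-80407071, minus strand: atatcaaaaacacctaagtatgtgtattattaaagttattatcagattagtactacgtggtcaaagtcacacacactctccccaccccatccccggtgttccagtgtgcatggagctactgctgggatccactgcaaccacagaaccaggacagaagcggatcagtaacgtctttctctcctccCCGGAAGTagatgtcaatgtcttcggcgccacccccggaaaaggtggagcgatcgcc
Atp5e, chr2:174464106-174464351, minus strand: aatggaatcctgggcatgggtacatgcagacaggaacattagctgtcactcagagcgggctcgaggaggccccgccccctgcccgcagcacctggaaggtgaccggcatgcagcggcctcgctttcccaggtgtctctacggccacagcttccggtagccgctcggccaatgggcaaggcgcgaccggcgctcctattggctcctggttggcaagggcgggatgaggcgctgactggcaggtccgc
Ndufa11, chr17:56717512-56717761, plus strand: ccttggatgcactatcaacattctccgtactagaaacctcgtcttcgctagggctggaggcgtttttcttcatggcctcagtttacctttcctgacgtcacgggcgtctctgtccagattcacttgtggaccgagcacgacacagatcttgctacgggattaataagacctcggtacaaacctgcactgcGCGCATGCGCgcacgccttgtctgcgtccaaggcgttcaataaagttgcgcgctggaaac
The capitals are CCGGAAGT (ETS) in Uqcr11 and, in Ndufa11, 10 bases in which GCATGCGC (NRF-1) matches on both strands with overlap. Uqcr11 also has an NRF-1 match in its promoter window, outside the printed bases. Sdha, Cox5a and Atp5e have no exact match to any motif searched, nor has the window of Ndufs8. Only exact matches were searched, so sites that vary from these letters were not counted. Over the 71 RefSeq promoters of 66 nuclear members, each 250 bases before to 50 after the start and searched on both strands, 14.08% held GCATGCGC (2.71% of all 32851 promoters and 5.33% of those of tested genes). AAGATGGC (YY1) was in 12.68% (2.75% and 4.51%), and CCGGAAGT in 7.04% (3.89% and 8.32%). None of the 3 motifs contains another. A match describes the sequence and not a bound site.

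Other mitochondrial gene lists help to place these levels. A list of 18 genes covered the citric acid cycle and also the pyruvate dehydrogenase complex, with Pdha1 and Dlat among them. Of these, 5, 4, 8 and 3 were higher in the libraries labelled Lingo1, Lingo2, Lingo3 and TROY knockout and 0 lower. Of the 18 genes, 11 stood above both parental libraries in all 4 knockouts (24.2% of all tested genes). Over all tested genes the shares past the rule upward were 13.5%, 13.1%, 19.7% and 11.4%, and downward 11.2%, 10.6%, 16.7% and 9.41%, for the same 4 comparisons. Cs, citrate synthase, was at 228 and 223 CPM in the parental libraries and at 310, 302, 350.2 and 303 CPM in the knockouts. Ogdh, the catalytic subunit of the oxoglutarate dehydrogenase complex, had log2 folds of 0.58, 0.45, 0.77 and 0.38. Succinate dehydrogenase, and Sdha with it, belongs to the citric acid cycle as well as to the chain.

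Of 22 genes for electron carriers and exchangers, 3, 5, 4 and 1 were higher and 1, 0, 0 and 0 lower, beside 13.5%, 13.1%, 19.7% and 11.4% of all tested genes higher and 11.2%, 10.6%, 16.7% and 9.41% lower. Vdac1, the outer membrane channel, was 1.39-, 1.42-, 1.38- and 1.28-fold higher. Slc25a5, an ADP/ATP carrier, was 1.35-fold higher in the Lingo1, 1.44-fold in the Lingo2 and 1.55-fold in the Lingo3 knockout. Ucp2 was 1.36-fold higher in Lingo1 and in Lingo2 and 1.58-fold in Lingo3. It stood at 953 and 775 CPM in the unscratched and scratched parental libraries and at 1056, 1052, 1225 and 837 CPM in the knockouts. Of 27 genes for mitochondrial DNA maintenance and expression, 0, 0, 1 and 0 were higher and 7, 4, 9 and 7 lower, to be read against the same shares. Mterf2 had ratios of 0.636, 0.665, 0.616 and 0.663, and Polg2, a DNA polymerase subunit, of 0.658, 0.686, 0.702 and 0.639.

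Of 43 assembly factors, 1, 2, 5 and 0 were higher and 3, 0, 6 and 8 lower. The background for all counts in this paragraph is again 13.5%, 13.1%, 19.7% and 11.4% of all tested genes higher and 11.2%, 10.6%, 16.7% and 9.41% lower, so that several of these counts lie near or under it. Tmem126b, a complex I assembly factor, had ratios of 0.631 in Lingo1, 0.638 in Lingo3 and 0.693 in TROY, and the copper chaperone Cox17 of 0.678, 0.661 and 0.691. Nubpl, another complex I factor, was 1.35-fold higher in Lingo1, 1.64-fold in Lingo2 and 1.41-fold in Lingo3. Of 77 mitochondrial ribosomal protein genes, 0, 2, 4 and 0 were higher and 4, 0, 5 and 11 lower, with a median log2 fold of -0.16 in TROY. Of 8 regulators of mitochondrial biogenesis, the coactivator Ppargc1a was lower in 3 knockouts, from 11.4 CPM in the scratched parental library to 7.36 in Lingo1, 7.40 in Lingo2 and 6.05 in TROY, and stood at 12.3 in Lingo3. After the scratch in the parental line, 0 genes of these lists passed upward, and 1 ribosomal protein gene, Mrpl23, passed downward at a ratio of 0.489 (0.327 to 0.722). Of 14 genes of the mitochondrial stress response, 3 were higher after the scratch (0.902% of all tested genes), and 2, 3, 4 and 3 higher and 2, 1, 2 and 2 lower in the libraries labelled Lingo1, Lingo2, Lingo3 and TROY knockout. Trib3, a target of that response, stood at 7.36 and 8.65 CPM in the parental libraries and at 16.7, 18.1, 19.9 and 16.1 CPM in the knockouts. The lower genes were Ddit3 in all 4 knockouts, with ratios of 0.632, 0.661, 0.622 and 0.691, and Hspe1 in 3. Hspe1 had ratios of 0.726 in Lingo1, 0.761 in Lingo3 and 0.696 in TROY, so the genes past the rule went both ways. Of the 14 genes, 9 stood above both parental libraries in all 4 knockouts (24.2% of all tested genes). Ddit3 was the 1 gene below both (21.9% of all tested genes).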

How the data were processed

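Messenger RNA was sequenced from 6 MLE12 libraries, 1 per group. The authors deposited raw read counts per Ensembl gene; the submitters' processing notes name Trimmomatic 0.39, STAR, HTSeq, edgeR and GRCm38, with other versions, settings and read length not given in the sources used here. RPKM values and log2 ratios come from another table deposited by the authors. In that authors' deposited table the log2 ratios differed from those computed here by at most 0.006 in any member after the median shift.

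Counts were scaled with TMM (edgeR 4.0.16, R 4.3.3) over all 6 libraries. The ratio of scaled counts carries a 95% interval from the exact Clopper-Pearson interval, for counting error only; no molecular identifiers are described, so reads are not independent molecules. The interval of the mitochondrial to nuclear ratio is the normal one on the log scale. With 1 library per group no test was possible. Tested genes reached 1 CPM on average. Symbols, positions and transcripts are from GENCODE M21, promoters from RefSeq (GRCm38.p6), and a principal transcript gives the length.

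Named are all mitochondrial members, members past the 2-fold rule, the 4 nuclear members with the largest bound in each comparison and direction, RPKM extremes of each complex, tissue isoforms, and up to 3 members of other lists in each direction. Other members were named after their values were seen. Members and lists were chosen with earlier results of these data known. Alternatives were total counts, DESeq2 1.42.0 size factors, TMM without mitochondrial genes, other filters, the unscratched control, and, added after the data were seen, only members with at least 90% unshared windows.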

Additional observations from a re-analysis of the deposited data

How the results depend on the processing

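No paired analysis was possible because no group has a second library or a replicate number that links libraries, and leaving out a library would leave an empty group. With total counts in place of TMM the mitochondrial median log2 fold was 0.181 after the scratch and -0.116, 0.169, -0.091 and 0.038 in the libraries labelled Lingo1, Lingo2, Lingo3 and TROY knockout, and 5 members passed the 0.32 rule in Lingo1, 3 of them lower against 0 with TMM, and 3 in Lingo2, while the TROY counts went from 13 to 22 lower and from 4 to 2 higher. With a mean of at least 5 CPM, 1 member passed in Lingo1, since Cox6a2 was no longer tested. Against the unscratched parental library 8 members passed in Lingo1 and 10 in Lingo2. The mitochondrial median was then 0.11 in Lingo1, against -0.04 with the scratched control, 0.12 in Lingo3, against -0.02, and 0.42 and 0.24 in Lingo2 and TROY. The log2 mitochondrial to nuclear ratio was then 0.21 in Lingo1, 0.26 in Lingo2, 0.16 in Lingo3 and 0.48 in TROY. With only members of at least 90% unshared windows, which drops mt-Co1 and mt-Nd4, the mitochondrial median was 0.085 in Lingo1, 0.172 in Lingo3 and 0.31 in TROY, and 6 members passed in Lingo3 and 11 in TROY because fewer were tested. The cause of the other differences was not tested. The direction of the mitochondrial median in Lingo1 and Lingo3 therefore depends on the control and on the genes counted. DESeq2 size factors and TMM without mitochondrial genes kept every count of members past the rule within 1.5 times, as did no filter on low counts. Depth limits Cox6a2, Atp5s and Ndufb4, which had the widest intervals among the members named as past a rule.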
